A study of Mus musculus with 9 samples.

Results

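The genes described here encode 37 enzymes and membrane proteins of the lysosome, chosen by name: cathepsins and other proteases, glycosidases, sulfatases, lipid-handling proteins, integral membrane proteins, 2 subunits of the proton pump and the transcription factor TFEB. They were chosen with earlier results of these data known, so their counts beside those of all genes are a description and not independent support. All 37 had a probe set with a single gene symbol on the arrays, out of 19938 genes measured this way. The lysosome is the acidic compartment in which cells break down proteins, glycans, lipids and nucleic acids delivered by endocytosis and autophagy. Its soluble hydrolases are carried there mostly by mannose 6-phosphate receptors, a vacuolar proton pump (V-ATPase) keeps it acidic, and heavily glycosylated proteins such as LAMP1 and LAMP2 line its membrane. TFEB and its relatives bind E-box sequences in many lysosomal genes, and tumor cells are known to secrete several cathepsins.

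Expression was measured in DR500, MR20 and parental 4T1 cells, with RNA from 3 wells of each line on 1-colour whole-transcript mouse arrays. 4T1 is a metastatic, triple-negative mammary adenocarcinoma line from BALB/c mice, and it received no drug. DR500 cells survived doxorubicin, an anthracycline, raised stepwise to 500 ng/ml, although some label fields of these samples name methotrexate. MR20 cells survived methotrexate, a folate antagonist, at 20 µg/ml in the labels and in ng/ml in the paper. The labels give up to 2 weeks of selection for both lines. For DR500 the methods of the paper give a longer course, 1 week at a first dose and 1 further week at each higher dose. By the methods, both selected lines were then cultured without drug before use. Each line is a single surviving population, and its 3 wells are not independent selections, so p-values measure only the spread between wells, which may be technical. The labels of the DR500 samples differ in style from those of the other lines, and a batch of their arrays cannot be told apart from the line. The extraction note of the DR500 samples pairs them with an untreated 4T1 culture named WTR-, while the 4T1 arrays used here are labelled WT, and whether these are the same culture is not given in the sources used here. Every DR500 against 4T1 value rests on these WT arrays. In such bulk samples, fewer cells that express a gene and less RNA per cell cannot be told apart either. Values are log2 expression values as the authors normalized them. A gene is said to rise or fall where limma, fitted on all 9 arrays, gave an adjusted p under 0.05 over all genes, and a fold beyond 2 is named separately. Probe sets differ in brightness, so levels are compared between lines and not between genes.

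DR500 cells had higher levels of most lysosomal genes than 4T1 cells, while MR20 cells had a mixture of higher and lower ones. In DR500, 26 of the 37 genes rose, 3 fell and 8 were not called, against 20.2% of all genes higher and 21.3% lower. The median log2 fold change of the 37 genes was 0.51, and that of all genes was 0.07. Rises beyond 2-fold were seen in 6 genes (2.47% of all genes), namely Lipa, Ctsd, Lgmn, Tpp1, Grn and Arsb, and falls beyond 2-fold in 0 (3.09% of all genes, limma, and also 0 at an unadjusted p under 0.05). Without replicate 1 of DR500, the array furthest from its line's mean, the counts were 26 and 3, and 8 rises passed 2-fold. In MR20, 10 genes rose, 14 fell and 13 were not called, against 15.4% of all genes higher and 17.1% lower, with a median of -0.06 beside -0.01 over all genes. Only Arsb rose beyond 2-fold there (1.41% of all genes), and Hexa and Arsa fell beyond it (1.08%). Because both comparisons use the same 4T1 arrays, DR500 was also compared with MR20 directly, where 28 genes were higher in DR500, 3 lower and 6 not called, against 21.2% and 20.6% of all genes. That difference passed 2-fold in 8 genes (2.87% of all genes), all higher in DR500 and none lower (3.23% of all genes; also 0 at an unadjusted p under 0.05 from limma), in the order Hexa, Lgmn, Neu1, Ctsb, Tpp1, Arsa, Scarb2 and Man2b1.

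**Figure D1:**
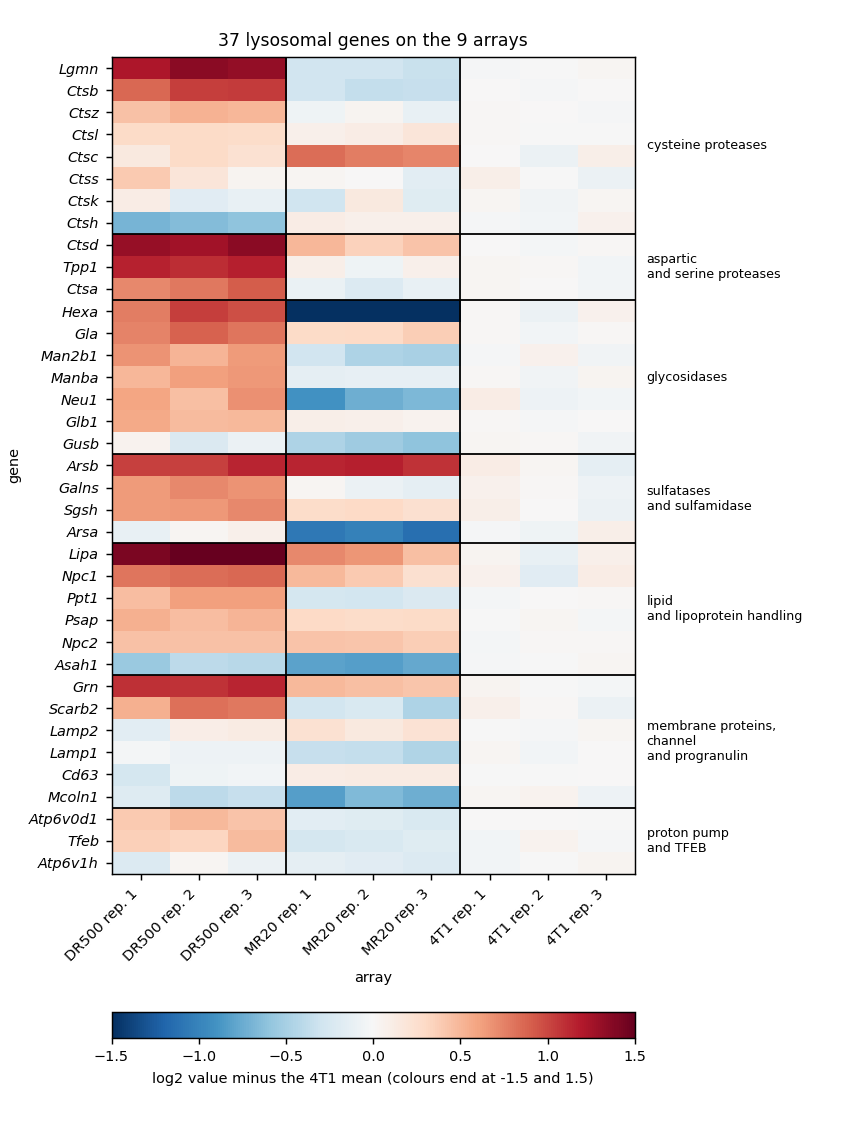
Log2 value minus the 4T1 mean (colour) of the 37 lysosomal genes (rows, by role) on each of the 9 arrays (columns, 3 per line). The DR500 columns are mostly red, the MR20 columns hold red and blue rows, and Hexa in MR20 (-2.77 on average) lies beyond the end of the scale.

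The sequences upstream of these genes were read to see how many hold the E-box to which TFEB binds. Promoters of 250 bases before to 50 after the start site were matched by symbol for 31 of the 37 genes (RefSeq, build GRCm38.p6). The core CACGTG, read on both strands since it is its own reverse complement, occurred in 11 of the 31 (35.5%), against 9.5% of all 15614 genes with a promoter in the table. The longer palindrome TCACGTGA, which contains the core, was found in 5 (16.1%), against 1.52% of all genes. Among genes that rose in DR500 the core was in 8 of 23 (34.8%), and among the others in 3 of 8 (37.5%). It was in 12 of 65 other lysosome genes with a promoter in the table (18.5%). The following windows of 100 bases show the 5 genes with the longer palindrome, of which Mcoln1 fell in both lines and the others rose in DR500, then Lamp1, with 4 copies of the core, and Lgmn, whose change in DR500 was among the largest. Capitals mark the core E-box, each sequence is given 5′ to 3′ in the direction of the gene, and for Ctsa and Lgmn, which have several start sites in the table, the start site with the E-box is shown. A further core of Ctsa, from base 6 after the start site, is cut by the end of its window and not marked. A further core of Ctsd, at -245, lies outside its window.
Ctsa (chr2:164833683-164833782, plus strand): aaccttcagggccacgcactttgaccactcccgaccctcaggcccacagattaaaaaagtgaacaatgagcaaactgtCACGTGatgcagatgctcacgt
Ctsd (chr7:142387873-142387972, minus strand): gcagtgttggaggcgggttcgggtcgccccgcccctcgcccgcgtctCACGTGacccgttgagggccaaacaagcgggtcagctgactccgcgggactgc
Gla (chrX:134601156-134601255, minus strand): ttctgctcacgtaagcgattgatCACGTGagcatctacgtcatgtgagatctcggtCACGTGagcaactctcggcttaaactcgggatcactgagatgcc
Atp6v0d1 (chr8:105566055-105566154, minus strand): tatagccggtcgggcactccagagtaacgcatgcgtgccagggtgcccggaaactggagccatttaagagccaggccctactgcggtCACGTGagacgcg
Mcoln1 (chr8:3500427-3500526, plus strand): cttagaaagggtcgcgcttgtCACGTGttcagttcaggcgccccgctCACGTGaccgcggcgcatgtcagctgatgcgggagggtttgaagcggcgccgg
Lamp1 (chr8:13159071-13159170, plus strand): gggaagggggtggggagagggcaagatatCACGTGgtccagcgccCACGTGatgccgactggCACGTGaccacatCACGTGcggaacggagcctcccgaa
Lgmn (chr12:102439089-102439188, minus strand): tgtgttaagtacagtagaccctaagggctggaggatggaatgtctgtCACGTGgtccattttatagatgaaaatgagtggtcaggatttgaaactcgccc
A match of letters is a description and does not show that a factor is bound in these cells. No E-box of these letters lay in the windows of Hexa, Lipa, Tpp1 or Grn.

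**Figure D2:**
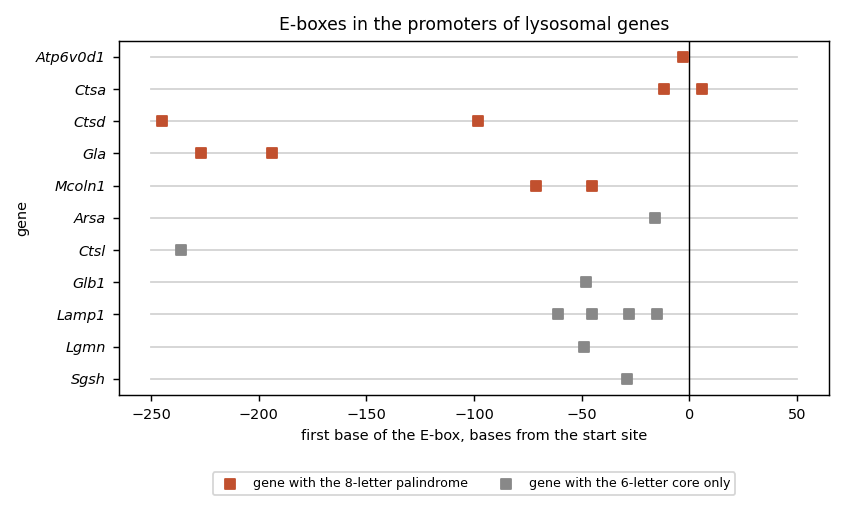
Position of each core E-box (x axis, bases from the start site) in the promoters of the 11 genes that hold one (rows). Lamp1 has 4 of them within the last 61 bases before the start, and the 5 genes with the longer palindrome stand at the top.

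Among the 8 cysteine proteases, 5 rose and 1 fell in DR500 (20.2% and 21.3% of all genes), and 1 rose and 2 fell in MR20 (15.4% and 17.1% of all genes). Lgmn encodes legumain, which cuts after asparagine and processes several cathepsins. Its log2 values were 11.55, 11.69 and 11.66 in DR500, 10.05, 10.05 and 10.00 in MR20, and 10.32, 10.34 and 10.36 in 4T1. No array of one line overlapped those of another, with DR500 the highest and MR20 the lowest. Relative to 4T1, Lgmn rose 2.45-fold in DR500 (log2 fold change 1.30, standard error 0.06, adjusted p = 4.58e-08 from limma) and fell by 0.31 on the log2 scale in MR20 (adjusted p = 0.00182). Ctsb, the gene of cathepsin B, an enzyme with both endopeptidase and dipeptide-releasing activity, was also highest in DR500 and lowest in MR20. Its values were 12.17, 12.34 and 12.36 in DR500, 11.02, 10.94 and 10.96 in MR20, and 11.31, 11.29 and 11.31 in 4T1. DR500 exceeded MR20 by 1.32 (standard error 0.06, adjusted p = 6.76e-08), with log2 fold changes against 4T1 of 0.99 in DR500 and -0.33 in MR20. Ctsc, whose product activates granule serine proteases, was highest in MR20, with 9.03, 9.17 and 9.11 in DR500, 9.72, 9.65 and 9.62 in MR20 and 8.88, 8.79 and 8.97 in 4T1. It rose by 0.22 in DR500 (adjusted p = 0.0202) and by 0.78 in MR20 (adjusted p = 1.17e-05), and was lower in DR500 than in MR20 by 0.56. The rise in DR500 was lost without replicate 2 of DR500 (adjusted p = 0.0714) and without replicate 1 or 2 of 4T1 (0.0523 and 0.089).

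The other cysteine proteases showed smaller differences. Ctsz, a carboxypeptidase, rose by 0.49 in DR500, and Ctsl, a broad endopeptidase, by 0.28, while their MR20 changes of -0.04 and 0.12 were not called. Ctsh, an aminopeptidase, was the single cathepsin of the group to fall in DR500. It measured 10.67, 10.71 and 10.76 there, 11.47, 11.44 and 11.44 in MR20 and 11.35, 11.32 and 11.43 in 4T1, a log2 fold change of -0.65 in DR500 (standard error 0.05, adjusted p = 5.01e-06). Ctsk and Ctss, known best from osteoclasts and from antigen-presenting cells, were not called in any comparison. Their means over the 9 arrays, 4.84 and 5.33, lay below the median probe set of each array (6.24 to 6.38), and their signal was not tested against background.

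All 3 aspartic and serine proteases rose in DR500, as did 20.2% of all genes. Ctsd encodes cathepsin D, the main aspartic protease of lysosomes, and measured 12.70, 12.66 and 12.76 in DR500, 11.90, 11.74 and 11.83 in MR20, and 11.41, 11.38 and 11.42 in 4T1. The 3 lines did not overlap, and MR20 lay between the others, with a rise of 1.31 in DR500 (standard error 0.06, 2.47-fold, adjusted p = 5.57e-08) and of 0.42 in MR20 (standard error 0.06, adjusted p = 2.96e-04). Tpp1, a tripeptidyl peptidase whose loss causes a childhood neuronal storage disease, measured 11.08, 11.03 and 11.10 in DR500, 10.02, 9.86 and 10.01 in MR20, and 9.96, 9.94 and 9.88 in 4T1. It rose 2.21-fold in DR500 (1.14, standard error 0.06, adjusted p = 1.86e-07), whereas the MR20 arrays overlapped those of 4T1 (0.04, adjusted p = 0.765). Ctsa, the protective protein that stabilises sialidase and β-galactosidase in one complex, rose by 0.81 in DR500 and had a change of -0.14 in MR20 that was not called (adjusted p = 0.142). Its partners were unequal in MR20, where Neu1 fell by 0.77 and Glb1 was not called (0.07), while in DR500 both rose, by 0.58 and 0.51.

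**Figure D3:**
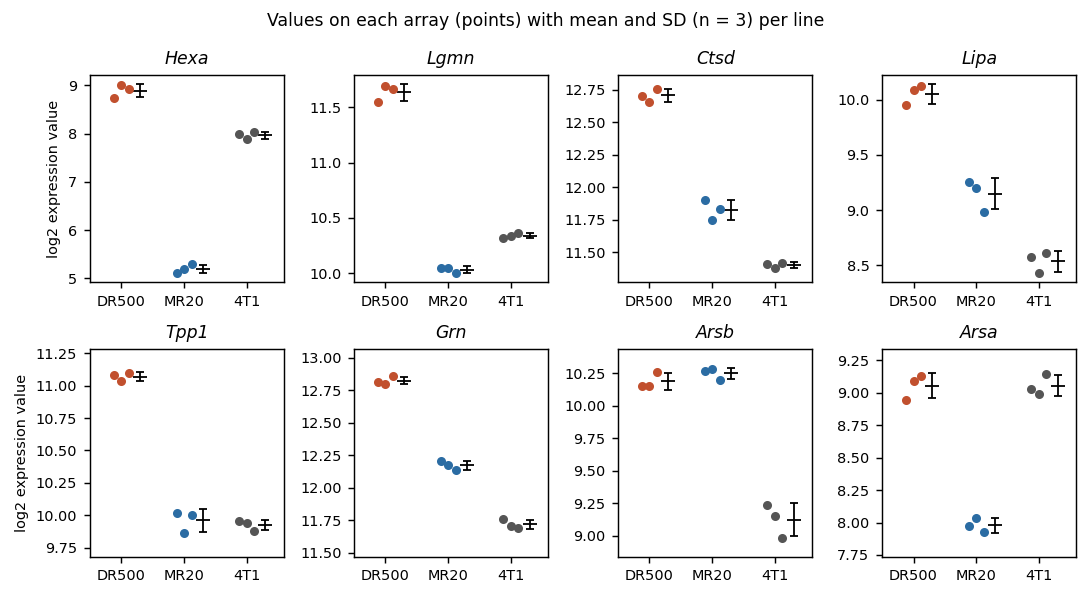
Log2 expression value (y axis, a scale of its own in each panel that does not start at 0) of 8 lysosomal genes on each array, with the mean and SD of the 3 arrays per line. Hexa and Arsa are lowest in MR20, Arsb is high in both selected lines, and the other 5 genes are highest in DR500.

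Of the 7 glycosidases, which remove sugars from glycoproteins and glycolipids, 6 rose in DR500 (20.2% of all genes) and 4 fell in MR20 (17.1% of all genes). All 7 were higher in DR500 than in MR20 (21.2% of all genes). Hexa had the largest change of the 37 genes in MR20. It encodes the alpha subunit of β-hexosaminidase A, the enzyme that degrades GM2 ganglioside and is deficient in Tay-Sachs disease. Its log2 values were 8.74, 9.01 and 8.93 in DR500, 5.11, 5.19 and 5.29 in MR20, and 7.99, 7.89 and 8.03 in 4T1. The lines stood far apart, and in MR20 the signal lay below the median probe set of every array, as it did in neither of the other lines. Relative to 4T1, Hexa was 6.82-fold lower in MR20 (log2 fold change -2.77, standard error 0.08, adjusted p = 7.35e-09) and 1.90-fold higher in DR500 (0.92, standard error 0.08, adjusted p = 7.26e-06). DR500 exceeded MR20 12.9-fold (3.69, standard error 0.08, adjusted p = 2.99e-10). Since the signal in MR20 was low and not tested against background, the size of its fall is less certain than its direction.

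Neu1, the lysosomal sialidase, measured 8.76, 8.61 and 8.85 in DR500, 7.26, 7.43 and 7.50 in MR20, and 8.29, 8.09 and 8.13 in 4T1. It was lowest in MR20 on every array, and DR500 exceeded MR20 by 1.35 (standard error 0.09, adjusted p = 7.03e-07). Man2b1, the lysosomal alpha-mannosidase, measured 10.09, 9.93 and 10.05 in DR500, 9.13, 8.95 and 8.94 in MR20, and 9.40, 9.48 and 9.37 in 4T1, a rise of 0.61 in DR500 and a fall of 0.41 in MR20. Gla, alpha-galactosidase A, the enzyme deficient in Fabry disease, was ordered in another way. Its values were 10.03, 10.18 and 10.09 in DR500, 9.57, 9.59 and 9.66 in MR20, and 9.31, 9.25 and 9.31 in 4T1, so that both selected lines lay above 4T1, by 0.81 in DR500 (standard error 0.06, adjusted p = 1.72e-06) and 0.31 in MR20 (adjusted p = 0.0019). Manba, the β-mannosidase, rose by 0.59 in DR500 and was not called in MR20 (-0.12). Gusb, β-glucuronidase, was not called in DR500 (-0.09) and fell by 0.53 in MR20.

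The sulfatases, which strip sulfate from glycosaminoglycans and sulfatide, included a gene that was higher in both selected lines and another that was called lower in MR20 and not in DR500. Arsb, which acts on dermatan and chondroitin sulfate, measured 10.15, 10.15 and 10.26 in DR500, 10.26, 10.28 and 10.20 in MR20, and 9.23, 9.15 and 8.98 in 4T1. The selected lines overlapped with each other and lay above 4T1, 2.09-fold in DR500 (1.07, standard error 0.07, adjusted p = 1.11e-06) and 2.18-fold in MR20 (1.13, standard error 0.07, adjusted p = 1.76e-06). A second probe set of Arsb, which was not used in the fit, read 9.48, 9.38 and 9.42 in DR500, 9.52, 9.52 and 9.42 in MR20, and 8.48, 8.51 and 8.44 in 4T1, the same order. Arsa, the sulfatide-degrading enzyme that is deficient in metachromatic leukodystrophy, measured 8.94, 9.09 and 9.13 in DR500, 7.98, 8.04 and 7.92 in MR20, and 9.03, 8.99 and 9.14 in 4T1. Here the DR500 and 4T1 arrays overlapped, while Arsa was 2.11-fold lower in MR20 (-1.07, standard error 0.07, adjusted p = 1.84e-06). Galns, which removes sulfate from keratan sulfate, measured 8.87, 8.94 and 8.90 in DR500, 8.26, 8.14 and 8.09 in MR20, and 8.29, 8.24 and 8.15 in 4T1, which put DR500 0.68 above 4T1 (standard error 0.06, adjusted p = 1.26e-05). Sgsh, the sulfamidase of heparan sulfate, rose by 0.67 in DR500 and 0.27 in MR20.

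Of the 6 genes of lipid and lipoprotein handling, 5 rose and 1 fell in DR500 (20.2% and 21.3% of all genes), and 4 rose and 2 fell in MR20 (15.4% and 17.1% of all genes). Lipa, the acid lipase that releases cholesterol from lipoprotein esters, had the largest rise of the 37 genes in DR500. It measured 9.95, 10.09 and 10.12 in DR500, 9.26, 9.20 and 8.99 in MR20, and 8.57, 8.43 and 8.61 in 4T1. The lines did not overlap, and the rise was 2.86-fold in DR500 (1.51, standard error 0.09, adjusted p = 2.83e-07) and 1.53-fold in MR20 (0.61, standard error 0.09, adjusted p = 3.08e-04). Cholesterol freed by this lipase is passed by NPC2 to NPC1, which exports it through the membrane. Npc1 measured 9.59, 9.63 and 9.66 in DR500, 9.28, 9.19 and 9.04 in MR20, and 8.86, 8.62 and 8.90 in 4T1, a rise of 0.83 in DR500 and 0.38 in MR20, and Npc2 rose by 0.44 and 0.40 in these lines. Psap, the precursor of the saposins that help enzymes reach their lipids, rose by 0.50 in DR500 and 0.28 in MR20. Ppt1, the palmitoyl-protein thioesterase, rose by 0.56 in DR500 and fell by 0.25 in MR20. Asah1, acid ceramidase, ran against the others, with 11.30, 11.46 and 11.44 in DR500, 11.05, 11.03 and 11.09 in MR20, and 11.84, 11.85 and 11.88 in 4T1. It was lower in both selected lines, with log2 fold changes of -0.46 in DR500 (standard error 0.06, adjusted p = 1.06e-04) and -0.80 in MR20 (standard error 0.06, adjusted p = 4.74e-06).

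Of the 6 genes of membrane proteins, a group that also holds a channel and progranulin, 2 rose and 1 fell in DR500 (20.2% and 21.3% of all genes). In MR20, 1 rose and 3 fell (15.4% and 17.1% of all genes). The median log2 fold change of these 6 genes was -0.02 in DR500 and -0.10 in MR20, beside 0.07 and -0.01 over all genes. Grn, the gene of progranulin, a secreted precursor that is cut into granulins in the lysosome, measured 12.81, 12.80 and 12.86 in DR500, 12.20, 12.17 and 12.14 in MR20, and 11.76, 11.71 and 11.69 in 4T1. The 3 lines were fully separate, with rises of 1.11 in DR500 (standard error 0.05, 2.15-fold, adjusted p = 7.66e-08) and 0.45 in MR20 (adjusted p = 8.97e-05). Scarb2 encodes LIMP2, the membrane protein that carries glucocerebrosidase to lysosomes, and measured 8.74, 9.04 and 9.0 in DR500, 7.94, 7.98 and 7.74 in MR20, and 8.29, 8.23 and 8.12 in 4T1. Relative to 4T1 it was 0.71 higher in DR500 (standard error 0.09, adjusted p = 1.24e-04) and fell by 0.32 in MR20 (adjusted p = 0.0224). That fall was lost without replicate 3 of MR20 (adjusted p = 0.0901) and without replicate 1 or 2 of 4T1 (0.0859 and 0.067), and with every array centred on its own median (0.0675). Mcoln1, the calcium and cation channel TRPML1, measured 10.57, 10.37 and 10.42 in DR500, 9.93, 10.10 and 10.03 in MR20, and 10.79, 10.81 and 10.68 in 4T1. Its log2 fold change was -0.31 in DR500 (adjusted p = 0.00616) and -0.74 in MR20 (adjusted p = 3.4e-05).

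The major structural proteins of the membrane differed little between DR500 and 4T1. Lamp1 had a change of -0.06 in DR500 (adjusted p = 0.401) and fell by 0.38 in MR20 (adjusted p = 3.18e-04), Lamp2 had changes of 0.02 and 0.20 that were not called, and the tetraspanin gene Cd63 had changes of -0.12 and 0.12 that were not called. Cd63 was lower in DR500 than in MR20 by 0.24 (adjusted p = 0.0137), a call that was lost with every array centred on its own median (0.0532). Atp6v0d1, a subunit of the membrane sector of the proton pump, measured 10.37, 10.46 and 10.41 in DR500, 9.82, 9.80 and 9.75 in MR20, and 9.98, 9.98 and 9.97 in 4T1, a rise of 0.43 in DR500 (standard error 0.05, adjusted p = 6.59e-05) and a fall of 0.19 in MR20 (adjusted p = 0.0171). Atp6v1h, of the cytosolic sector, was not called in any comparison, with -0.09 in DR500 and -0.17 in MR20. Tfeb itself measured 8.06, 8.02 and 8.18 in DR500, 7.44, 7.47 and 7.52 in MR20, and 7.66, 7.76 and 7.68 in 4T1. The lines did not overlap, with a rise of 0.39 in DR500 (standard error 0.06, adjusted p = 4.6e-04) and a fall of 0.22 in MR20 (adjusted p = 0.0174). The falls of Atp6v0d1 and Tfeb in MR20 were lost in several alternatives, with adjusted p up to 0.142 and 0.105 after centring, and without replicate 2 of 4T1 (0.0578 and 0.0782). For Atp6v0d1 this was also so without replicate 3 of MR20 (0.0676) and replicate 1 of 4T1 (0.054), and for Tfeb without replicate 1 or 2 of MR20 (0.0616 and 0.0514). Arrays report messenger levels, and the activity of TFEB, which is set largely by its place in the cell, was not measured.

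**Figure D4:**
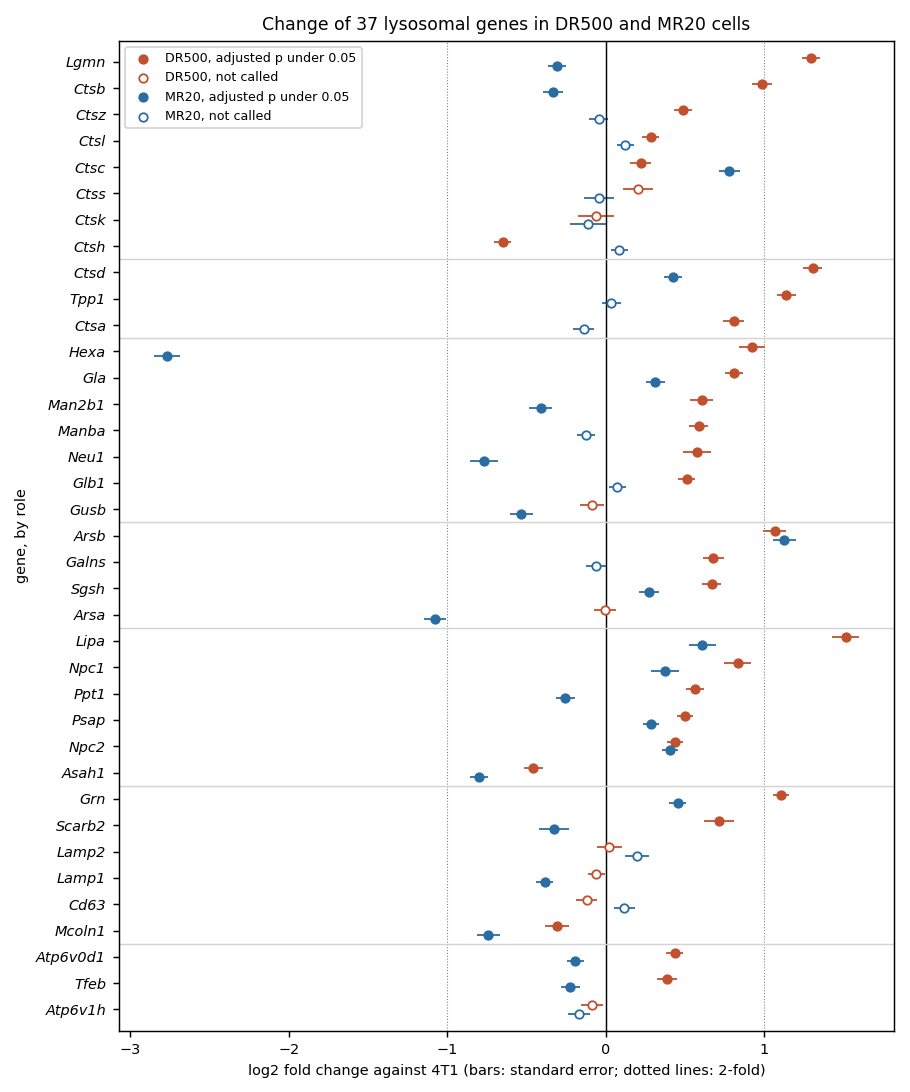
Log2 fold change against 4T1 (x axis, bars are standard errors from limma, 3 arrays per line) of the 37 lysosomal genes (y axis, by role) in DR500 and MR20. Filled points have an adjusted p under 0.05, and dotted lines mark 2-fold. Most DR500 points lie right of 0, Ctsh, Asah1 and Mcoln1 are its filled points left of 0, and Hexa in MR20 lies furthest left.

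By the order of their means, 14 of the 37 genes were highest in DR500 and lowest in MR20, 11 were highest in DR500 and lowest in 4T1, and 7 were highest in 4T1 and lowest in MR20. MR20 was the highest line for the other 5. These orders were not counted over all genes. Some also rest on differences that were not called, such as those of Tpp1 (0.04) and Ctsz (-0.04) between MR20 and 4T1. The arrays of DR500 and 4T1 did not overlap for 30 genes, 26 of them higher in DR500 (25.7% of all genes) and 4 lower (24.4%). Those of MR20 and 4T1 did not for 32 genes, 15 higher in MR20 (21.4%) and 17 lower (23.8%), and those of DR500 and MR20 for 34, 30 higher in DR500 (26.4%) and 4 lower (23.4%). Other genes were counted from 7 lists, of further lysosomal proteins and proton pump subunits, and also of enzyme sorting, nutrient sensing, autophagy and inhibitors of cathepsins. Not all of them encode proteins of the lysosome, so the pooled shares do not describe that compartment alone. Over 145 measured genes of these lists together, 58 rose and 30 fell in DR500 (40.0% and 20.7%, against 20.2% and 21.3% of all genes). In MR20, 26 rose and 45 fell (17.9% and 31.0%, against 15.4% and 17.1%). In the direct comparison, 54 of the 145 were higher in DR500 and 28 lower (37.2% and 19.3%, against 21.2% and 20.6% of all genes). The median log2 fold change of the 145 genes was 0.12 in DR500 and -0.03 in MR20, beside 0.07 and -0.01 over all genes.

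Further hydrolases and soluble proteins were largely higher in DR500 where they were called. Of 30 measured, 14 rose and 5 fell in DR500 (46.7% and 16.7%, against 20.2% and 21.3% of all genes). In MR20, 5 rose and 13 fell (16.7% and 43.3%, against 15.4% and 17.1%). Ppt2, a relative of Ppt1, changed by 2.12 in DR500 and -0.43 in MR20, Naaa, an acid amidase, by 1.38 and -0.55, and Dnase2a, the acid nuclease, by 1.23 and -0.63, all past the threshold. Ctsw, a cathepsin of cytotoxic lymphocytes, fell by 2.84 in DR500 and was not called in MR20. Of 27 other membrane proteins, 9 rose and 6 fell in DR500 (33.3% and 22.2%), the lower share being near that of all genes. In MR20, 6 rose and 9 fell (22.2% and 33.3%). Cd68, a lysosomal glycoprotein best known from macrophages, rose by 2.30 in DR500 and 1.23 in MR20, while the cystine exporter gene Ctns fell by 1.09 in DR500, and Slc15a3, a peptide and histidine transporter, rose by 1.21 in MR20. Tpcn1, a cation channel of endolysosomes, fell by 0.94 in MR20.

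Other V-ATPase subunits stood near the share of all genes in DR500, with 6 of 22 higher (27.3%) and 3 lower (13.6%), against 20.2% and 21.3%. In MR20 2 rose and 5 fell (9.09% and 22.7%, against 15.4% and 17.1% of all genes). The largest change among them was in Atp6v0a1, 0.72 in DR500 and -0.61 in MR20. Among 20 genes of nutrient sensing and relatives of TFEB, 7 rose and 3 fell in DR500, and 3 rose and 5 fell in MR20. Tsc2, an inhibitor of mTORC1, rose by 0.58 in DR500 and fell by 0.25 in MR20, and Lamtor3, a subunit of the Ragulator scaffold, fell by 0.77 in MR20 and was not called in DR500. For the sorting of enzymes, 9 of 20 genes rose and 5 fell in DR500, and 4 rose and 7 fell in MR20. Sort1, sortilin, changed by 0.99 in DR500 and -0.44 in MR20, and Igf2r, the large mannose 6-phosphate receptor, by 0.94 and -0.27, whereas the retromer gene Vps35 fell in both lines, by 0.83 in DR500 and 0.46 in MR20. Vps18 and Vps41, of the complexes that tether vesicles to lysosomes, rose in both, Vps18 by 0.79 in DR500 and 0.26 in MR20, and Vps41, with the largest change of this list in MR20, by 0.53 in DR500 and 0.63 in MR20. Autophagy genes rose in 11 of 18 cases and fell in 5 in DR500 (61.1% and 27.8%, against 20.2% and 21.3%). In MR20 they rose in 6 and fell in 6 (33.3% each, against 15.4% and 17.1% of all genes). Map1lc3a, a marker of autophagosomes, rose by 0.70 in DR500 and 0.73 in MR20, and Atg9b fell by 1.92 in DR500 and 1.26 in MR20. Of 8 inhibitors of cathepsins, 2 rose and 3 fell in DR500, led by Stfa3, a stefin (2.44), and Cst6, cystatin M (-1.15). Sort1 in MR20 (mean 5.92) and Stfa3 in 4T1 (mean 4.58) lay below the median probe set of every array and were not tested against background, so the sizes of their changes are uncertain. In MR20, 0 of the 8 inhibitors rose and 0 fell (limma, 15.4% and 17.1% of all genes). The counts were also 0 at an unadjusted p under 0.05.

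**Figure D5:**
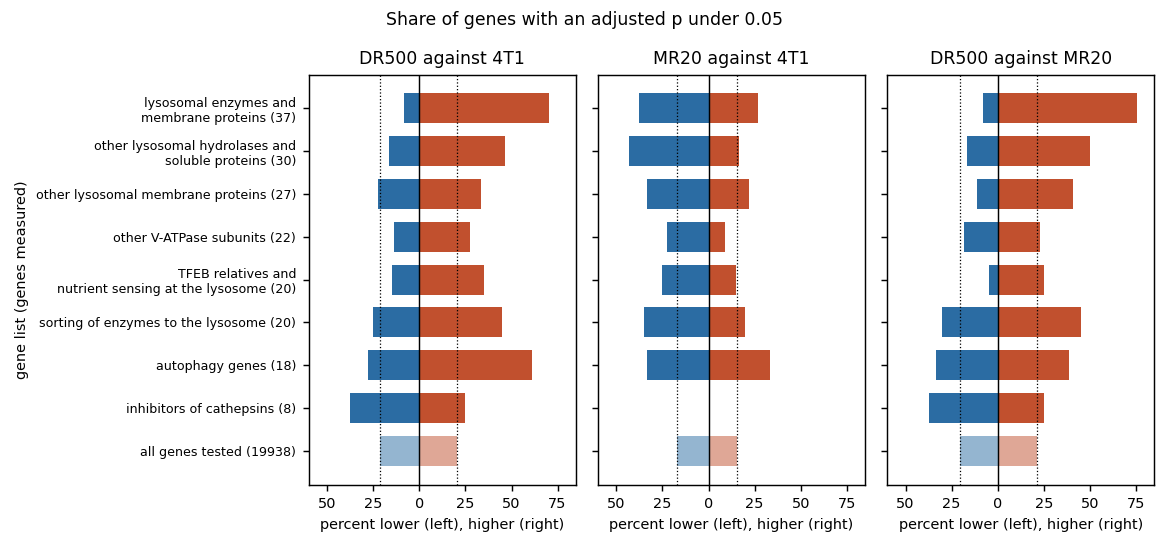
Percent of measured genes (x axis) with an adjusted p under 0.05 that were higher (right of 0) or lower (left of 0) in DR500 against 4T1, MR20 against 4T1 and DR500 against MR20, for the 37 lysosomal genes, 7 other lists and all 19938 genes. Dotted lines give the shares over all genes. In DR500 against 4T1 the 37 genes reach 70.3% higher and 8.11% lower.

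Markers of other cell types were read beside these changes, since macrophages are rich in lysosomal enzymes. Of 16 measured macrophage and leukocyte genes, 5 rose in DR500 (31.2%, against 20.2% of all genes) and 2 in MR20 (12.5%, against 15.4%). In both lines 0 fell (limma, also at an unadjusted p under 0.05). The rises were chiefly Cd53 (4.35 and 0.95) and Cd14 (0.67 and 1.42). In DR500 Lyz1 (0.38), Aif1 (0.34) and Mrc1 (0.31) also rose, with means below the median probe set of every array in all 3 lines. Cd53 averaged 9.17 in DR500, 5.78 in MR20 and 4.83 in 4T1, and the values in MR20 and 4T1 lay below the median probe set of every array and were not tested against background, so the sizes of its changes are uncertain. The summed linear level of the 16 genes was 2124 to 2357 in DR500, 2315 to 2391 in MR20 and 1221 to 1288 in 4T1. Such sums are weighted to the brightest probe sets, here Cd14, and do not stand for the list as a whole. Ptprc, Adgre1 and Csf1r were among the genes not called in either line, with means of 5.24, 4.21 and 5.33 in DR500, 5.18, 4.23 and 5.44 in MR20, and 5.17, 4.15 and 5.57 in 4T1, all below the median probe set of every array. Fibroblast markers summed to 1516 to 1660 in DR500, 606 to 653 in MR20 and 745 to 797 in 4T1, and 2 of 8 rose in DR500, Pdgfra (1.70) and Dcn (0.56), with Dcn below that median in all 3 lines. Epithelial markers, which check the labelled mammary carcinoma origin, summed to 17728 to 19262 in DR500, 43866 to 44775 in MR20 and 39295 to 41118 in 4T1. Krt8 and Krt18 were the brightest in each line, but they changed by only 0.03 and -0.36 in DR500. The lower sum in DR500 therefore also reflects other genes of the list. Of these 10 genes, 8 fell in DR500 (80.0%, against 21.3% of all genes), 7 of them beyond 2-fold (3.09% of all genes). Their median log2 fold change there was -3.21, with Cldn4 (-5.84), Krt7 (-5.67), Cldn3 (-4.32), Epcam (-4.19) and Cdh1 (-3.84) falling most. Epcam was at 6.82 in DR500, 10.84 in MR20 and 11.01 in 4T1. Krt8 was not called in DR500, at 13.43 in DR500, 13.60 in MR20 and 13.41 in 4T1. The part of these differences in the lysosomal changes was not tested.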

How the data were processed

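The authors made the deposited log2 expression values from 1-colour Affymetrix whole-transcript mouse arrays by robust multi-array normalization with the package affy, a procedure of background correction, quantile normalization and summary over the probes of each probe set. Package versions, array dates and batches are not given in the sources used here. The values were used as deposited, for 9 arrays of 3 lines.

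Of 35556 probe sets, 21789 had 1 gene symbol (21698 updated by Entrez identifier). The brightest of several stood for a gene, as in 999 genes, of which Arsb was 1 of the 37 described. Limma 3.58.1 in R 4.3.3 fitted a mean per line (6 residual degrees of freedom), with Benjamini-Hochberg adjustment over 19938 genes, and the fit was tested on simulated data. Arrays limit precision by their number. The 37 genes and all lists were chosen with earlier results of these data known.

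Array values were given for genes called beyond 2-fold and, per role, for the 2 largest called changes of each selected line, and of each other list up to 4 genes with the largest called change in either selected line were named. Array values of Ctsh, 1 probe set of Arsb and the gene Vps41 were added after they were seen. Alternative settings were a fit restricted to both lines of a comparison, a filter on dim genes, repeated quantile normalization, centring, the mean of probe sets, all probe sets, a variance trend, a replicate block, leaving out each array, and longer motifs.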

Additional observations from a re-analysis of the deposited data

Results flagged for a closer look

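The genes named here were called lower in MR20 and higher in DR500 than in the same 4T1 arrays, and the direct test of DR500 against MR20 passed for each (limma, adjusted p = 1.82e-05 or smaller). Because both comparisons share the 4T1 arrays, nothing is read from how many genes did so. Hexa differed by 3.69 on the log2 scale (standard error 0.08), and since its signal in MR20 lay below the median probe set of every array and was not tested against background, the size of this difference is uncertain. Lgmn differed by 1.60 (standard error 0.06), Neu1 by 1.35 (standard error 0.09) and Ctsb by 1.32 (standard error 0.06). Scarb2 differed by 1.04 and Man2b1 by 1.01, both just beyond 2-fold. Ppt1 (0.82), Atp6v0d1 (0.63) and Tfeb (0.61) differed less. In each of these genes every DR500 array lay above, and every MR20 array below, all 4T1 arrays. The lower level in MR20 was not called in every alternative for Scarb2, Ppt1, Atp6v0d1 and Tfeb, while the direct difference was.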

How the results depend on the processing

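Counts of lysosomal genes stayed within 1.5 times their value in every alternative run, and no called gene changed direction. Leaving out each array in turn gave 25 to 27 higher and 3 lower in DR500 against 4T1, 10 to 11 higher and 11 to 15 lower in MR20 against 4T1, and 27 to 29 higher and 3 to 4 lower in DR500 against MR20. The other alternatives gave 26 to 27 and 3 to 4, 10 to 13 and 10 to 16, and 27 to 29 and 2 to 4. In every alternative, 28 of 29 called genes kept their call in DR500, 20 of 24 in MR20 and 29 of 31 in the direct comparison. The calls that were lost were those of Ctsc in DR500, of Scarb2, Ppt1, Atp6v0d1 and Tfeb in MR20, and of Ctsl and Cd63 between DR500 and MR20, and 2 of 8, 5 of 13 and 2 of 6 genes that were not called in these comparisons gained a call in at least 1 alternative. Ppt1 in MR20 lost its call after centring (adjusted p = 0.0586). Ctsl between DR500 and MR20 lost it in 7 alternatives, without replicate 1 of MR20 among them (adjusted p = 0.102). Ctss gained a call in DR500 without replicate 3 of DR500 (adjusted p = 0.0307), and Lamp2 and Atp6v1h gained one in MR20 without replicate 1 of DR500 (0.0115 and 0.039). With the longer palindromes in place of the 6-letter core, the share of promoters was 16.1% with 8 letters and 0.0% with 10, against 35.5% with the core, which the longer motifs contain.

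Replicate numbers did not pair the arrays: correlations of same-numbered deviations ran from -0.31 to 0.33, and a fit with the number as a replicate block called 27 genes higher and 3 lower in DR500, 10 and 14 in MR20, and 28 and 3 between DR500 and MR20. Changes near the threshold, mostly under 0.3 on the log2 scale, are the ones that 3 arrays per line leave unsure, as are values below the arrays' median.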

Other observations

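Hexa was the single gene of its neighbourhood with a large change in MR20, an observation made after its value was seen. The 5 measured genes on either side of it in the RefSeq order had log2 fold changes of -0.34 (Bbs4) to 0.22 (Senp8) in MR20 against 4T1. Of these 10 genes, 2 were called lower, Adpgk (-0.20, adjusted p = 0.0134 from limma) and Bbs4 (adjusted p = 0.0331), and 1 higher, Arih1 (0.16, adjusted p = 0.04). In DR500 against 4T1 the same neighbours were mixed. Lower were Gramd2 (-2.02, standard error 0.09, with DR500 at a mean of 5.97, below the median probe set of every array), Bbs4 (-0.97), Parp6 (-0.97) and Senp8 (-0.74). Neo1 and Pkm were higher, as Hexa was (0.38 each), and Adpgk, Arih1, Tmem202 and Celf6 were not called.

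Further genes of the other lists were picked after their values were seen. Ids, the sulfatase of Hunter syndrome, fell by 1.01 in DR500 and rose by 0.34 in MR20. The acid phosphatase genes Acp2 and Acp5 rose by 1.07 and 0.96 in DR500 and were not called in MR20.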
